A study of Mus musculus with 6 samples.

Results

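The genes described here are 31 mouse genes of the piRNA pathway and of the germ granules in which that pathway works. They were taken by symbol from a table of 54100 genes, and all 31 were found there. RNA was sequenced from cryosections of testis in 6 libraries, 3 of H3t deletion mice, which lack a testis variant of histone H3, and 3 of wild-type (WT) mice. The series deals with Leydig cells in testes where spermatogenesis is disrupted. The labels give neither strain nor age, and they give each library its own number without saying that it stands for a separate animal. Total counts per library were 8315960 to 8988520 in the deletion and 8037826 to 10702930 in WT. H3f4, the row of the targeted H3t gene, had 0 counts in each deletion library, against 390, 571 and 356 counts in WT replicates 1, 2 and 3. Mitochondrial genes held 21.6% to 22.7% of counts in the deletion and 5.59% to 6.44% in WT, and the part of this share in the results was not tested.

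PIWI-interacting RNAs (piRNAs) are small RNAs that guide PIWI proteins to transposon and gene transcripts in germ cells. Long precursors are cut at the mitochondrial surface, loaded into a PIWI protein, trimmed and methylated. Tudor proteins hold the parts together by binding methylated arginines of the PIWI proteins. In mouse testis the pathway runs in phases. Fetal germ cells use PIWIL2 (MILI) and nuclear PIWIL4 (MIWI2) to place DNA methylation on transposons. Pachytene spermatocytes and round spermatids use PIWIL2 and PIWIL1 (MIWI) with a separate set of pachytene piRNAs. The granules change alongside, with intermitochondrial cement in spermatocytes and the chromatoid body in spermatids. The 31 genes were sorted by these roles into 8 genes of fetal and spermatogonial silencing, 13 of the shared biogenesis machinery, 8 of pachytene and spermatid stages, and 2 broadly expressed Tudor proteins.

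Most of the pathway was lower in H3t deletion testis. Of the 31 genes, 24 fell, 3 rose and 4 were not called by edgeR's quasi-likelihood test at a false discovery rate of 0.05, with Benjamini-Hochberg adjustment over all 17038 genes tested, of which 84.5% were called in either direction. Lower calls were 77.4% of the 31 genes, against 46.1% of all tested genes, and higher calls 9.68%, against 38.4%. The median log2 fold change, deletion over WT, was -2.66 for the 31 genes and -0.19 for all tested genes. Losses of at least 4-fold were called for 20 of the 31 genes, or 64.5%, against 29.5% of all tested genes. Losses of at least 8-fold were called for 12, or 38.7%, against 23.7%. The 3 deletion libraries all lay below the 3 WT libraries for 24 genes, where 46.7% of all tested genes did so, and all above for 4, where 39.2% did so. In bulk tissue, fewer cells of a type and less RNA per cell cannot be told apart.

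Levels are given as CPM, counts scaled to a common library size with TMM (trimmed mean of M-values) factors. The 31 genes held 0.092% ± 0.00153 of all counts in the deletion and 0.576% ± 0.00416 in WT (SD, n = 3 each). The share was 0.0903%, 0.0933% and 0.0923% in deletion replicates 1 to 3, and by comparison 0.581%, 0.573% and 0.575% in WT replicates 1, 2 and 3. The summed level was thus far apart between the groups and close to even within them. Single genes varied more, and the plot by library shows which ones.

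**Figure D1:**
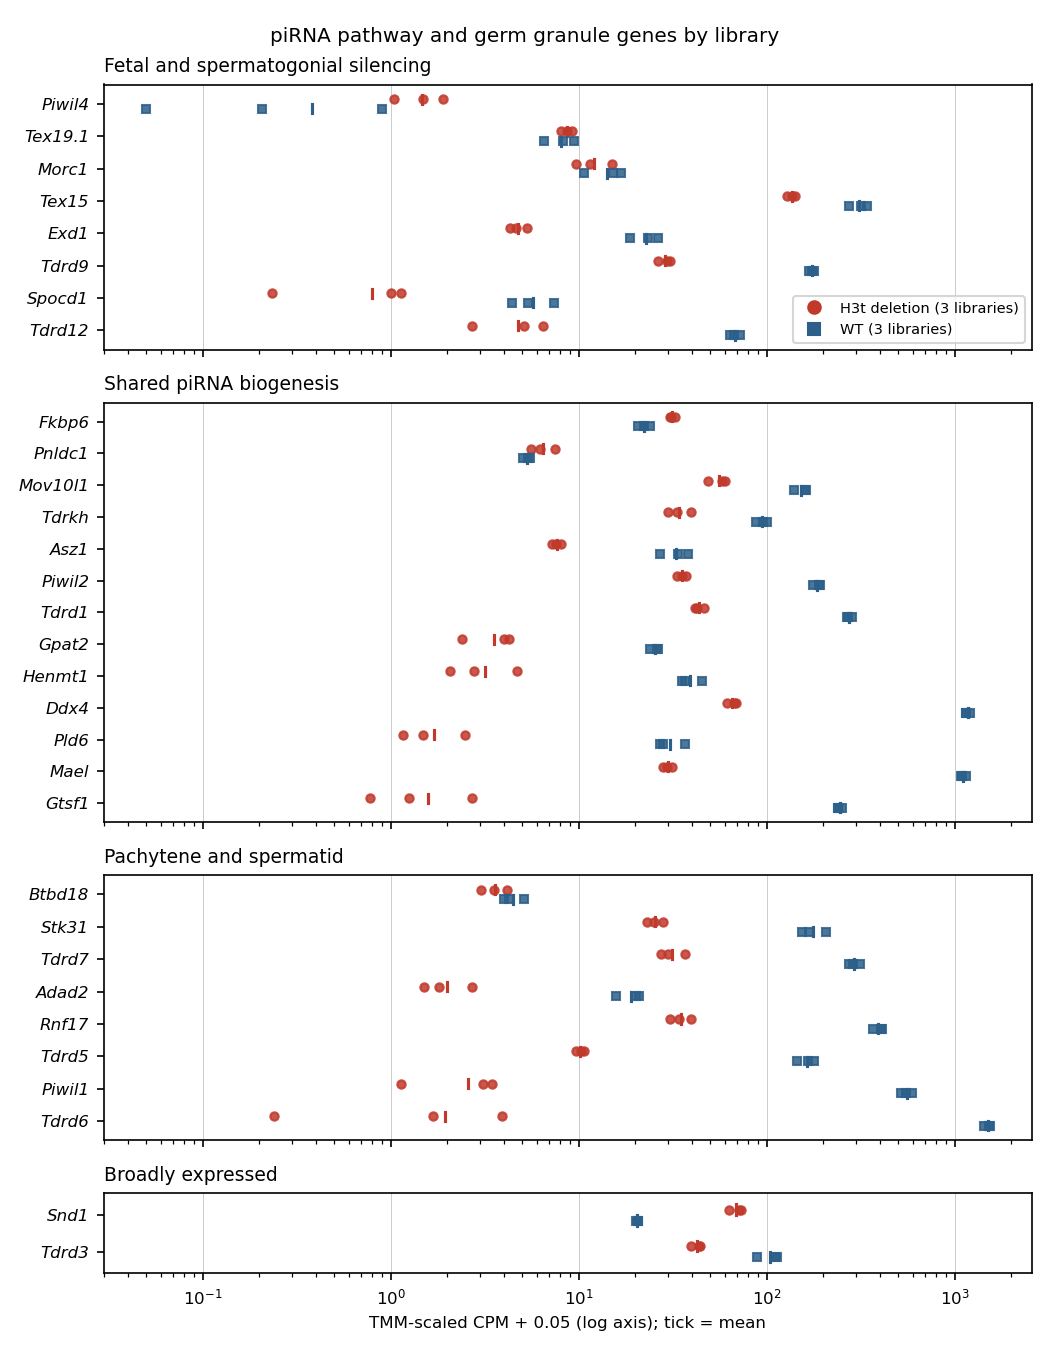
Counts scaled to library size (CPM) of each of the 31 genes in every library, with TMM factors, on a log axis after adding 0.05, with H3t deletion libraries as circles, WT libraries as squares and a tick at each group's mean. Tdrd6 has the widest gap, with means of 1.9 for deletion libraries and 1500.1 for WT libraries, while Snd1, Piwil4, Fkbp6 and Pnldc1 have all deletion libraries above WT with TMM scaling and log2 fold changes below 0 with Sertoli-level scaling.

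The role classes differed in their medians. The median log2 fold change was -1.74 for the fetal and spermatogonial genes, -2.66 for the shared machinery and -3.39 for the pachytene and spermatid genes. Within classes the values ran from -3.83 to 2.10, from -7.32 to 0.50 and from -9.61 to -0.32. The classes therefore overlapped widely, and the difference between them was not tested. Markers of germ cell stages give a scale for these values. The median log2 fold change was 1.80 for 8 tested markers of undifferentiated spermatogonia, 0.84 for 8 of differentiating spermatogonia, -2.38 for 13 of early meiotic prophase, -7.56 for 10 of pachytene and later spermatocytes and -9.46 for 12 of spermatids. The spermatogonial lists moved both ways. With TMM scaling 6 of the undifferentiated markers rose and Id4 fell, over a range of -1.41 to 3.40. Of the differentiating markers 4 rose and Dmrtb1 and Sohlh2 fell, over a range of -6.21 to 3.13. The pachytene markers ran from -10.27 to -2.71 and the spermatid markers from -11.53 to -5.57. Of the 31 genes, 23 lay inside the range of the early prophase markers, -4.58 to 0.14. Mael, Gtsf1, Piwil1 and Tdrd6 lay below it, and Piwil4, Fkbp6, Pnldc1 and Snd1 above it. Among all tested genes, 19.3% were lower than Pld6 and 54.4% lower than Tex19.1, the lowest and highest of the 23. Many other tested genes thus lay in this range too. Mael, the highest of those below, had 16.9% of all tested genes under it, and Pnldc1, the lowest of those above, had 57.3%. Of the spermatogonial markers, Nanos2 was at 0 counts in all libraries.

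**Figure D2:**
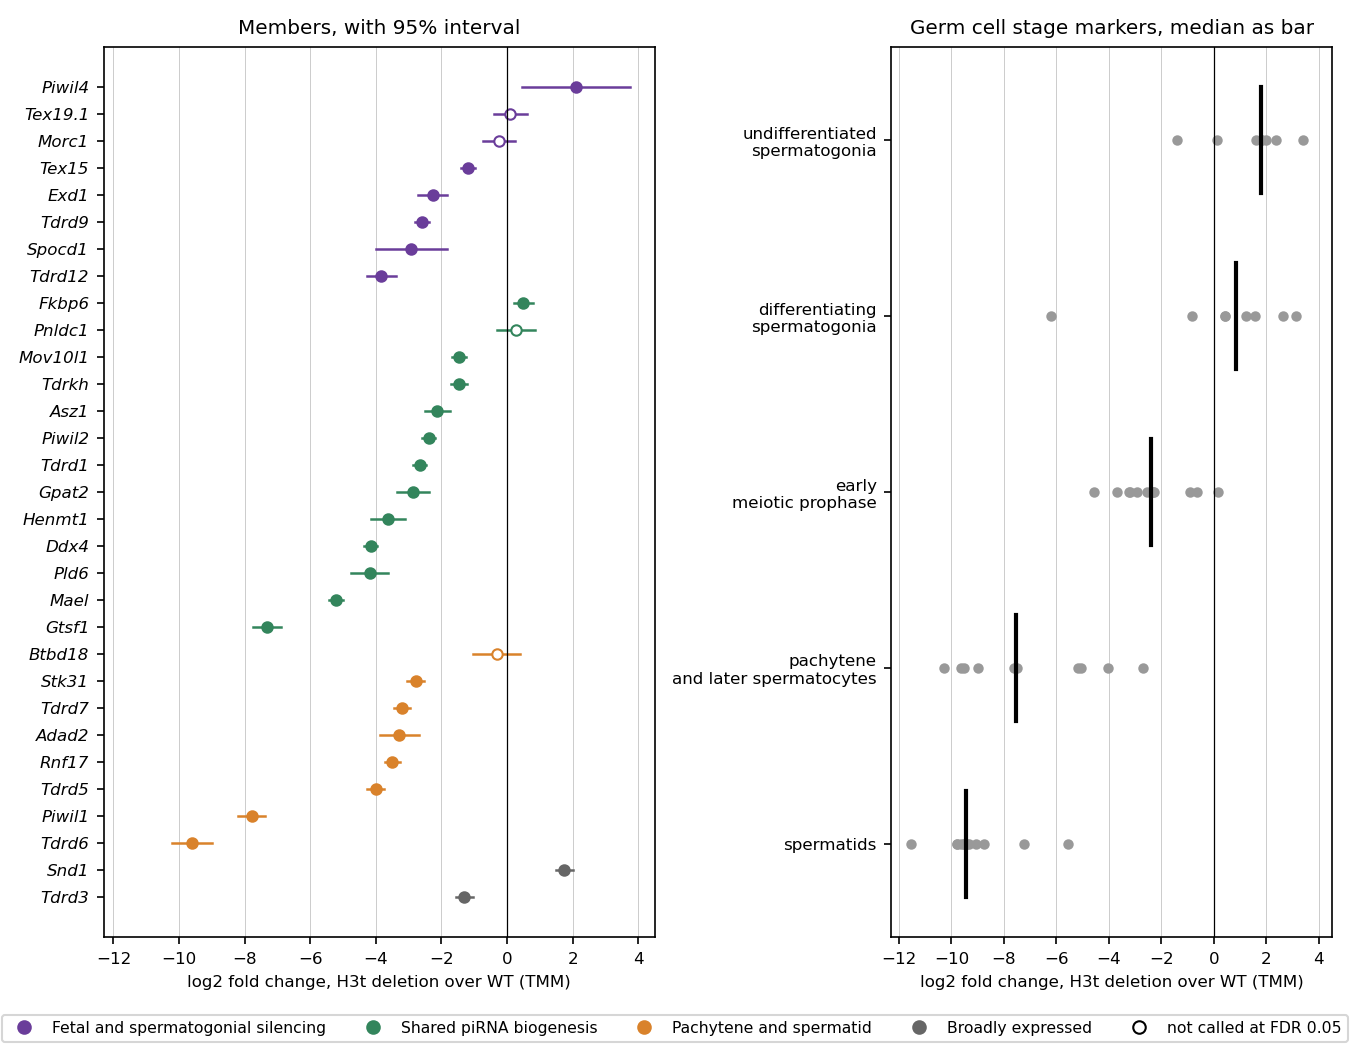
Log2 fold changes, H3t deletion over WT with TMM scaling, for the 31 genes with 95% intervals from edgeR's fit (left; open circles were not called) and for markers of 5 germ cell stages, each point a gene and each bar a median (right). The pachytene and spermatid class runs from -9.61 to -0.32 and the early prophase markers from -4.58 to 0.14.

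Promoters of the genes were searched for 3 short motifs. The palindrome CACGTG, a binding motif of helix-loop-helix factors that include the MAX and MGA proteins known to silence germline genes outside the germline, was searched with AACNGTT, a MYB motif that is its own reverse complement, and GCGGGA, an E2F-like motif, the last on both strands. Windows of 300 bases, 250 before to 50 after each start, were taken from RefSeq on GRCm38.p6 and matched 24 of the 31 genes with 33 windows. Spocd1, Tex15, Morc1, Piwil2, Pnldc1, Tdrd6 and Rnf17 were not matched. CACGTG stood in 10 of the 24 genes, or 41.7%, and in 8.09% of all 27025 genes with a window. By window, the shares were 13 of 33 and 7.15% of all 32851. The count by window is not a separate one, since overlapping windows of Fkbp6, Stk31 and Tdrd1 hold the same CACGTG sites again. GCGGGA stood in 8 of the 24 genes, against 22.0% of all genes, and AACNGTT in 1, Piwil4, against 5.01%. The 33 windows of the 24 matched genes had a median GC content of 62.3% and 21 CpG, against 52.7% and 7 CpG over all windows. The part of base composition in the counts was not tested. Inside a window, no match of these motifs overlapped another.

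Of the 10 genes with CACGTG, 9 fell and Fkbp6 rose with TMM scaling but was lower at both marker-level scalings, with log2 fold changes from -7.79 to 0.50 and a median of -3.04. Of the 14 without it, 10 fell and 2, Piwil4 and Snd1, rose with TMM scaling but not with Sertoli-level scaling, from -7.32 to 2.10 with a median of -2.20. With TMM, 46.1% of all tested genes were called lower and 38.4% higher. The difference between genes with and without CACGTG was not tested. Upstream sequence is shown for 5 of the 10, from the gene that rose through moderate losses to Piwil1 with the largest, with CACGTG in capitals. Each runs 5′ to 3′ on the gene's own strand, covers at most 250 bases before a RefSeq start, and leaves out bases that GENCODE M21 puts in an exon of the gene. The Piwil1 stretch lies inside the gene as GENCODE M21 places it, at 128702524 to 128755474 on chromosome 5. The stretches are chr5:135350045-135350294, minus strand, for Fkbp6, chr12:111971309-111971558, plus strand, for Tdrd9, chr19:56825959-56826208, plus strand, for Tdrd1, chr1:166238748-166238994, minus strand, for Mael, and chr5:128735996-128736173, plus strand, for Piwil1.
Fkbp6: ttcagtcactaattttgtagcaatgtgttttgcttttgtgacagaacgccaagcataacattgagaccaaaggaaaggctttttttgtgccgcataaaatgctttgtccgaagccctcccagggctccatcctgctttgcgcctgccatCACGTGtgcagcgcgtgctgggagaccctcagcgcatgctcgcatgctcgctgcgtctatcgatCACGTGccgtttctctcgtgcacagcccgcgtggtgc
Tdrd9: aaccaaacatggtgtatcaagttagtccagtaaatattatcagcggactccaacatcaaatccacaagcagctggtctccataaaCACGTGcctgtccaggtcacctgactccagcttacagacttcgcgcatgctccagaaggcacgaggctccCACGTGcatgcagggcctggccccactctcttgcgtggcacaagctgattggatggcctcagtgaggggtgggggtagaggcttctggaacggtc
Tdrd1: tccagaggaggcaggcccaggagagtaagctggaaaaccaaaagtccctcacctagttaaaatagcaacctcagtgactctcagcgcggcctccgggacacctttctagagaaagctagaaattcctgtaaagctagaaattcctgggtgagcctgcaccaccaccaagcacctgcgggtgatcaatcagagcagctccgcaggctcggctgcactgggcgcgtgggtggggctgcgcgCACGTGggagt
Mael: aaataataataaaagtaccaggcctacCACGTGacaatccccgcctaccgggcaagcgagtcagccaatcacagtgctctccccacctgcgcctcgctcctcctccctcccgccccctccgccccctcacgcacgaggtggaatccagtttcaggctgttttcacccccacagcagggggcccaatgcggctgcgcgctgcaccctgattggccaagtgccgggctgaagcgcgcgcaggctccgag
Piwil1: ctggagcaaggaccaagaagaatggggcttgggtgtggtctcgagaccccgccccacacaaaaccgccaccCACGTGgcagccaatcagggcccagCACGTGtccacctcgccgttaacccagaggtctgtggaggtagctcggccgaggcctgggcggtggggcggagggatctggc

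Fkbp6, Tdrd9 and Piwil1 each held 2 copies in these stretches and Tdrd1 and Mael 1. With TMM scaling Fkbp6 was at 0.50, Tdrd9 at -2.59 and Piwil1 at -7.79 on the log2 scale. A link between the motif and these values was not tested.

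The 3 PIWI genes, which encode the proteins that carry piRNAs, differed in how far they moved. Piwil1 (chromosome 5, 128702524 to 128755474, GRCm38), the PIWI gene of pachytene cells and spermatids, had 3.41, 1.09 and 3.05 CPM in H3t deletion replicates 1 to 3, and by comparison 595, 519 and 552 CPM in WT replicates 1, 2 and 3. Every deletion library was far below every WT library. Its log2 fold change was -7.79 ± 0.19 (SE), or 221-fold lower, with an adjusted p of 8.57e-15. Piwil2 (chromosome 14, 70372477 to 70429383), which acts in all phases, had 33.3, 37.3 and 35.6 CPM in the deletion, against 189, 193 and 176 CPM in WT. It fell 5.25-fold (log2 fold change -2.39 ± 0.10, adjusted p = 1.99e-12) and kept a steady level among the deletion libraries.

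Piwil4 (chromosome 9, 14696230 to 14740733), the nuclear PIWI gene of fetal germ cells, was rare in every library. It had 20, 11 and 15 counts in deletion replicates 1 to 3, and by comparison 1, 0 and 6 counts in WT replicates 1, 2 and 3. Its log2 fold change was 2.10 ± 0.77 with an adjusted p of 0.0193, and it passed the filter on low counts through the deletion libraries alone. The call ended without deletion replicate 1, WT replicate 1 or WT replicate 2, at 1.88, 1.78 and 1.43 (adjusted p = 0.0594, 0.0851 and 0.0987), and the value was 4.11 without WT replicate 3. It also ended with DESeq2, at 1.95 (adjusted p = 0.0684), and with libraries blocked by adjacent numbers in their titles, at 1.73 (adjusted p = 0.0832). When libraries were scaled to an equal level of Sertoli cell markers the value was -0.04.

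A ratio of counts between PIWI genes inside 1 library needs no scaling between libraries. The log2 ratio of Piwil2 to Piwil1 counts was 3.27, 5.04 and 3.52 in deletion replicates 1 to 3, and by comparison -1.66, -1.43 and -1.65 in WT replicates 1, 2 and 3. Piwil2 counts thus exceeded Piwil1 counts in each deletion library and were exceeded by them in each WT library. The difference was 5.52 on the log2 scale, and leaving out a library put it between 4.97 and 5.86. The ratio of Piwil4 to Piwil1 averaged -0.69 ± 0.50 in the deletion and -11.22 ± 1.95 in WT, and that of Piwil4 to Piwil2 averaged -4.63 ± 0.51 in the deletion and -9.65 ± 2.06 in WT (SD, n = 3 each). Both rest on the few Piwil4 counts in WT, of which replicate 2 had 0, so that its ratios are set by the 0.5 added to each count. Leaving out a library put the difference between 9.59 and 11.53 for Piwil4 to Piwil1 and between 3.99 and 6.04 for Piwil4 to Piwil2, lowest without WT replicate 2 and highest without WT replicate 3 in both. The groups did not overlap in any of the 3 ratios. The exact permutation test, two-sided, gave p = 0.1 for each, also adjusted over the 3, and 3 against 3 libraries cannot give less.

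**Figure D3:**
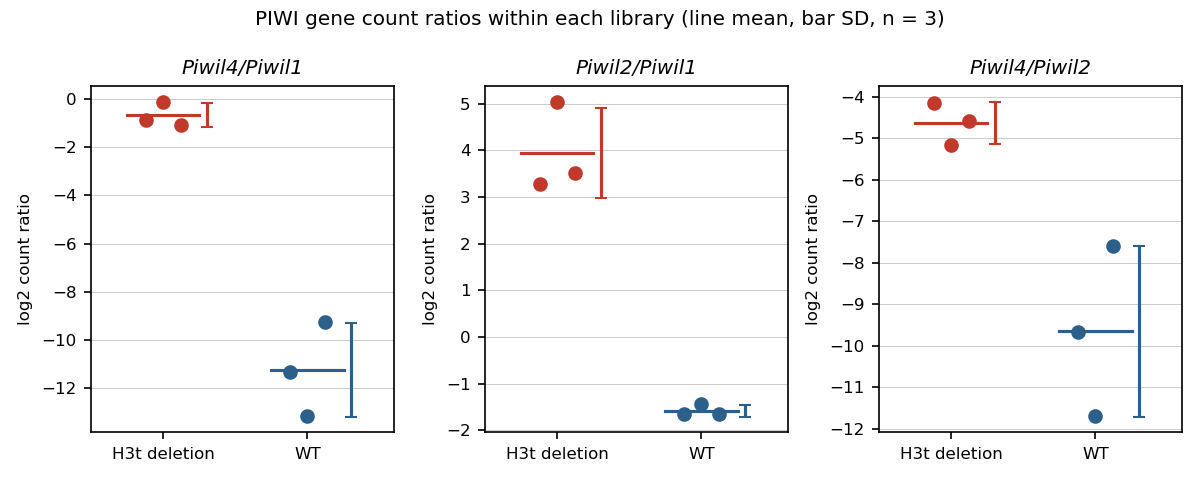
Log2 ratios of counts between PIWI genes in each library after adding 0.5 to each count, with points for libraries, lines for means and bars for the SD (n = 3), H3t deletion left of WT in each panel. The ratio of Piwil2 to Piwil1 lies between 3.27 and 5.04 in the deletion and between -1.66 and -1.43 in WT.

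Among the 8 fetal and spermatogonial genes, 5 fell and 1, Piwil4, rose with TMM scaling but not with Sertoli-level scaling, where 46.1% of all tested genes were called lower and 38.4% higher with TMM. At spermatogonia level 7 of the 8 were called lower, and so were 63.4% of all tested genes. Tex15, needed for piRNA-guided DNA methylation and for meiotic recombination in mice, had 142, 136 and 129 CPM in H3t deletion replicates 1 to 3, and by comparison 316, 274 and 344 CPM in WT, a log2 fold change of -1.20 ± 0.10 (adjusted p = 1.28e-08). That is a 2.29-fold loss, the smallest among the called losses of all 31 genes. Tdrd12, a Tudor protein of secondary piRNA production, had 6.45, 5.06 and 2.67 CPM in the deletion, against 71.8, 64.1 and 66.8 CPM in WT. Its log2 fold change was -3.83 ± 0.21 (adjusted p = 1.1e-10), the lowest of this class. Its partner Exd1 fell by 2.27, and Tdrd9, the helicase that works with PIWIL4, fell by 2.59. Spocd1, which links PIWIL4 to DNA methylation, fell by 2.92 ± 0.51. It was scarce, with 2, 12 and 10 counts in the deletion, against 28, 46 and 52 counts in WT, and the groups did not overlap.

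Morc1 and Tex19.1, which restrain transposons in mouse germ cells, were not called. Morc1 had 11.5, 9.68 and 15 CPM in the deletion, against 10.6, 15.1 and 16.8 CPM in WT. The 95% interval of its log2 fold change was -0.72 to 0.24. Tex19.1 had 8.66, 9.22 and 8.01 CPM in the deletion, against 8.25, 9.42 and 6.48 CPM in WT, with an interval of -0.41 to 0.60. The groups overlapped for both genes. With no scaling factor the values were 0.40 for Morc1, not called, and 0.73 for Tex19.1, called. With Sertoli-level scaling Morc1 was at -2.43 and Tex19.1 at -2.10, both called.

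Of the 13 shared biogenesis genes, 11 fell and 1, Fkbp6, rose with TMM scaling, where 46.1% of all tested genes were called lower and 38.4% higher. Ddx4 (chromosome 13, 112598333 to 112652475), the vasa helicase of germ granules, had 61.4, 68.4 and 67.1 CPM in H3t deletion replicates 1 to 3, and by comparison 1212, 1152 and 1149.6 CPM in WT replicates 1, 2 and 3. The deletion libraries were alike, and its loss was 17.8-fold (log2 fold change -4.16 ± 0.10, adjusted p = 4.65e-15). Mael, a granule protein needed for transposon silencing, fell 37.3-fold. Gtsf1 (chromosome 15, 103402405 to 103430470), a zinc finger cofactor of PIWI proteins, had the lowest log2 fold change of its class. It had 1.2, 0.723 and 2.67 CPM in the deletion, against 251, 241 and 241 CPM in WT, a log2 fold change of -7.32 ± 0.20 (adjusted p = 2.44e-14). Without deletion replicate 3 the value was -7.97. Its value stood next to the -7.79 of Piwil1, where the median of its class was -2.66.

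Piwil2's granule partner Tdrd1 fell by 2.66 and the PIWIL2-binding acyltransferase homologue Gpat2 by 2.86 on the log2 scale. Among the mitochondrial proteins of the pathway, Pld6, the nuclease that cuts precursors, fell by 4.19, Asz1, a scaffold, by 2.12 and Tdrkh, which brings PIWI proteins to the trimming enzyme, by 1.46. The precursor helicase Mov10l1 also fell by 1.46. Henmt1, which methylates the 3′ end of finished piRNAs, fell by 3.64. Antisense to Tdrkh lies an exon of Oaz3, which had 25, 17 and 0 counts in the deletion, against 7903, 10726 and 7920 counts in WT. Whether counting used strand is not stated, so reads of such a pair cannot be told apart, and their part in the Tdrkh counts was not tested. Tdrd5 likewise overlaps the antisense gene 4930518J20Rik, which had 0 counts in each deletion library, against 295, 436 and 355 counts in WT. Piwil4, Henmt1 and Pnldc1 also overlap an antisense gene, of which Gm10706 at Piwil4 and Gm9857 at Henmt1 had at most 6 counts in a library.

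Fkbp6, a co-chaperone that works with HSP90 in piRNA loading, went the other way. It had 32.5, 31 and 30.7 CPM in H3t deletion replicates 1 to 3, and by comparison 22.3, 20.6 and 23.8 CPM in WT replicates 1, 2 and 3. The groups did not overlap, and the log2 fold change was 0.50 ± 0.14 with an adjusted p of 0.00372. Its direction rests on the scaling, since it was -0.92 with spermatogonia-level and -1.70 with Sertoli-level scaling, both called lower, and the call ended with DESeq2, at 0.33 (adjusted p = 0.053), and in a test against a 1.5-fold change. By group mean per kilobase of annotated exon, Fkbp6 ranked 2 of the 31 genes in the deletion and 20 in WT, with 17.9 ± 0.529 CPM per kb in the deletion and 12.7 ± 0.9 CPM per kb in WT (SD, n = 3 each). Pnldc1, the exonuclease that trims piRNAs, had 6.17, 5.52 and 7.44 CPM in the deletion, against 5.45, 5 and 5.36 CPM in WT. It was not called, at 0.28 with an interval of -0.31 to 0.86, although the groups did not overlap.

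Of the 8 pachytene and spermatid genes, 7 fell and 0 rose with TMM scaling, where 46.1% of all tested genes were called lower and 38.4% higher. At spermatogonia level and at Sertoli level all 8 were called lower, and so were 63.4% and 76.7% of all tested genes. Tdrd6 (chromosome 17, 43615335 to 43630299), a Tudor protein of the chromatoid body, had 3.87, 1.63 and 0.191 CPM in H3t deletion replicates 1 to 3, and by comparison 1429, 1533 and 1539 CPM in WT replicates 1, 2 and 3. It fell 779-fold (log2 fold change -9.61 ± 0.29, adjusted p = 6.76e-14). The deletion libraries differed, with 42, 18 and 2 counts, and the value was -10.63 without deletion replicate 1. The 12 spermatid markers summed to 649, 300 and 108 counts in the same libraries, against 124935 to 174661 in WT, and their part in the Tdrd6 counts was not tested. Piwil1 did not follow that order, with 37, 12 and 32 counts in deletion replicates 1, 2 and 3.

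The remaining Tudor and granule genes of this class fell less. Tdrd5, needed for pachytene piRNAs and the chromatoid body, fell 16-fold, Rnf17, a Tudor protein of spermatocyte granules, fell by 3.50 and Tdrd7, of the chromatoid body, fell by 3.21 on the log2 scale. Adad2, an RNA-binding granule protein, fell by 3.28 and Stk31, a Tudor protein with a kinase domain, by 2.79. Btbd18, a nuclear protein needed to transcribe pachytene piRNA precursors, was not called. It had 3.5, 2.98 and 4.1 CPM in the deletion, against 4.2, 3.95 and 5.07 CPM in WT, with a 95% interval of the log2 fold change of -1.03 to 0.39. The groups overlapped, with only 33 to 43 counts per deletion library and 27 to 36 per WT library. Its value was 0.32 with no scaling factor and -2.52, called, with Sertoli-level scaling.

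The broadly expressed Tudor proteins parted. Snd1, a nuclease-like coactivator found in most cell types, had 71, 63 and 72.6 CPM in H3t deletion replicates 1 to 3, and by comparison 20.7, 20.1 and 20.6 CPM in WT replicates 1, 2 and 3. It rose 3.37-fold with TMM scaling (log2 fold change 1.75 ± 0.12, adjusted p = 1.88e-09), was at 0.34 and not called with spermatogonia-level scaling, and was at -0.45 and called lower with Sertoli-level scaling. Tdrd3, a methylarginine reader, had 39.5, 44.2 and 43.9 CPM in the deletion, against 114, 89.1 and 111 CPM in WT, and fell by 1.30 ± 0.12 (adjusted p = 3.93e-08). All 14 Sertoli, 7 Leydig and 7 macrophage markers rose with TMM scaling, with median log2 fold changes of 2.38, 3.16 and 2.27. Of 8 tested markers of undifferentiated spermatogonia 6 rose and 1 fell, with a median of 1.80. Of all tested genes 38.4% were called higher, so the rise was not particular to Snd1 or to somatic markers. Sertoli markers summed to 4212 to 4360.2 CPM in the deletion and 891 to 997 CPM in WT. Leydig markers summed to 2676 to 2978 CPM in the deletion and 302 to 341 CPM in WT, and macrophage markers to 433 to 507 CPM in the deletion and 95.9 to 104 CPM in WT. No marker of the 3 somatic lists was at 0 in all libraries of a group. The part of somatic or spermatogonial cells in the rise of Snd1 was not tested.

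The order of the pathway by level per kilobase changed between the groups. In the deletion the highest were Ddx4 at 21.8 ± 1.23, Fkbp6 at 17.9 ± 0.529, Mael at 17.1 ± 0.85 and Tex15 at 14.1 ± 0.7 CPM per kb. Fkbp6 and Mael, neighbours in that order, were closer than the sum of their SDs. In WT the highest were Mael at 639 ± 22.6, Ddx4 at 388 ± 11.8, Tdrd6 at 212 ± 8.96, Gtsf1 at 176 ± 4.62 and Piwil1 at 128 ± 9.02 CPM per kb (SD, n = 3 each). Tdrd6 ranked 29, Piwil1 ranked 28 and Gtsf1 ranked 22 among the 31 genes in the deletion.

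Scaling set the zero point of every fold change. Over all tested genes the median log2 fold change was -0.19 under TMM. Median-of-ratios scaling put it at -0.36, upper-quartile scaling at 0.35, and leaving factors out at 0.45. It stood at -1.59 when libraries were scaled to an equal level of undifferentiated spermatogonial markers and -2.39 when scaled to an equal level of Sertoli markers. The median of the 31 genes moved with it, from -2.66 under TMM to -2.83 with median-of-ratios, -2.12 with upper-quartile, -2.02 without factors, -4.08 at spermatogonia level and -4.87 at Sertoli level. Higher calls made up 45.4% of all calls with TMM, against 55.1%, 56.6%, 15.7% and 4.48% with upper-quartile, no factor, spermatogonia-level and Sertoli-level scaling. The 24 losses were called lower with each of these scalings, where 37.7% (no factor) to 76.7% (Sertoli level) of all tested genes were called lower. The 3 gains were called higher with TMM, median-of-ratios, upper-quartile and no factor, and 0 of the 31 genes were called higher at either marker level. Of all tested genes, 11.8% were called higher at spermatogonia level and 3.6% at Sertoli level.

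**Figure D4:**
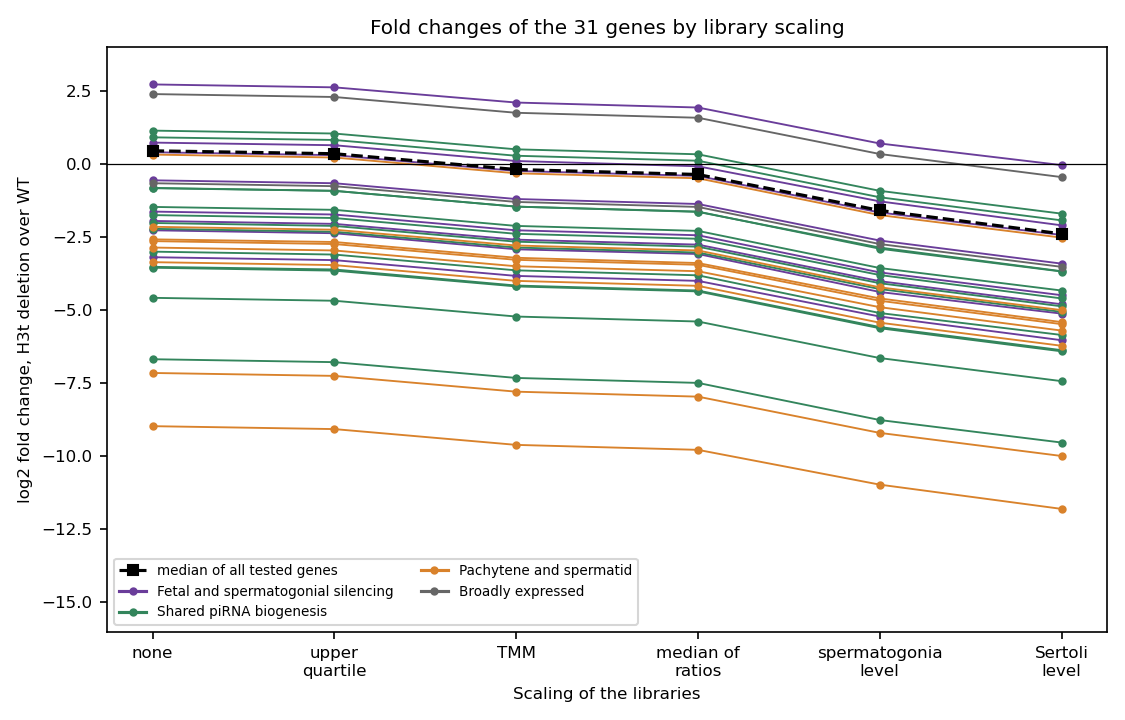
Log2 fold changes of the 31 genes, H3t deletion over WT, with 6 ways of scaling the libraries, coloured by role class, and the median of all tested genes as a dashed line. The dashed line moves from 0.45 with no factor to -2.39 at Sertoli level and the 31 genes move with it.

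Other genes of the pathway, 25 that are not among the 31, were looked at in the same fit. Of 21 tested, 14 fell and 6 rose, the last becoming 1 at spermatogonia level and 0 at Sertoli level, with a median log2 fold change of -1.35. Over all tested genes, 46.1% were called lower and 38.4% higher with TMM. The largest losses were in Gtsf1l and Gtsf2, paralogs of Gtsf1, and Kif17, a kinesin of the chromatoid body. Gtsf1l had 2, 3 and 0 counts in the deletion, against 974, 1214 and 900 counts in WT, a log2 fold change of -9.70 ± 0.25 (adjusted p = 1.19e-14). Gtsf2 had 3, 2 and 0 counts in the deletion, against 521, 711 and 472 counts in WT, at -8.84 ± 0.29 (adjusted p = 2.21e-13), and Kif17 was at -7.72 ± 0.14 (adjusted p = 1.17e-15). Leaving out a library put Gtsf1l between -10.33 and -9.17 and Gtsf2 between -9.48 and -8.31, with the lowest value without deletion replicate 2 for Gtsf1l and without deletion replicate 1 for Gtsf2. The largest gains were in Spin1, a chromatin reader that binds SPOCD1, Mov10, the broadly expressed relative of Mov10l1, and Cnot7, a deadenylase. They were at 2.30, 1.59 and 0.66, of which Spin1 was at 0.10 and not called, and Mov10 and Cnot7 at -0.61 and -1.55 and called lower, with Sertoli-level scaling. Mybl1, the A-MYB transcription factor of pachytene piRNA genes, fell by 2.07 ± 0.10. Tcfl5, also on this list, fell further, by 5.04 ± 0.14.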

How the data were processed

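The genotype label put 3 libraries in the H3t deletion group and 3 in WT. RNA from testis cryosections was made into libraries with the SMART-Seq Stranded kit, per the labels. The authors deposited unnormalized counts for each Ensembl gene. The submitters' processing notes name Trim Galore, HISAT2, featureCounts and GRCm38. Their versions, the annotation and the strand setting were not stated. Nothing states that libraries came from separate animals, so the p-values speak only of the spread among these libraries, part of which may be technical. Within groups, chi-square per degree of freedom was 4.75 to 7.32, above counting error alone, so no library was the same library counted again. A second library from the same RNA would also exceed counting error.

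The analysis used edgeR 4.0.16 under R 4.3.3. filterByExpr kept 17038 of 54100 genes, TMM factors were 1.21 to 1.27 in the deletion and 0.794 to 0.806 in WT, and genotypes were compared by its quasi-likelihood test, calling genes at a Benjamini-Hochberg adjusted p under 0.05. The biological coefficient of variation was 13.1%, and 1 count was worth 0.0904 to 0.156 CPM. Intervals are 95% from the fit, and standard errors are the log2 fold change over the square root of F. The steps were tested on simulated counts in which most genes were unchanged and gains and losses were equally likely. Such counts cannot speak to the choice of scaling here. Coordinates, exon lengths and overlaps came from GENCODE M21 on GRCm38. None of the 31 genes shared more than 2.7% of its transcripts' 50-base words with other genes.

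Genes, lists and role classes were chosen with earlier results of these data known. All 31 genes are described. Values per library are given for the PIWI genes and, in each class, for the most abundant gene and those with the highest and lowest log2 change, and of the other pathway genes the 3 highest and 3 lowest called changes are named. Spocd1, Morc1, Tex19.1, Pnldc1, Nanos2, Id4, Dmrtb1, Sohlh2, Mybl1, Tcfl5 and the antisense genes were picked for naming or per-library values after these were seen. The promoter motifs for the search were also chosen after values were seen. Alternatives were other scalings, including equal levels of Sertoli or undifferentiated spermatogonial markers, other filters, DESeq2 1.42.0, limma 3.58.1 (voom), a threshold of 0.01, a test against a 1.5-fold change, a block of adjacent numbers in the titles, whose meaning the labels do not give, and leaving out each library.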

Additional observations from a re-analysis of the deposited data

How the results depend on the processing

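The 24 losses were called lower in each of the 18 alternatives. Of all tested genes, 31.8% (no filter) to 76.7% (Sertoli level) were called lower there. Of 557 values of the 31 genes under these alternatives, 15 changed sign, and of those that kept it 10 lost their call and 8 gained one. The count of genes called higher, 3, became 5 with upper-quartile scaling and with no factor, 1 with DESeq2 and 0 with spermatogonia-level or Sertoli-level scaling. Of all tested genes 47.6%, 49.2%, 34.3%, 11.8% and 3.6% were called higher in these 5 alternatives, in that order, against 38.4% with TMM. The count was 2 with at least 20 counts in 3 libraries, the 0.01 threshold, the 1.5-fold test and the block. The shares of all tested genes there were 40.7%, 34.5%, 31.9% and 35.6%. When a library was left out the count ran from 2 to 3, beside 35.7% to 36.4% of all tested genes, and the count called lower stayed at 24. By class, higher calls among the fetal and spermatogonial genes became 2 with upper-quartile scaling and 2 with no factor and 0 with the spermatogonia-level, Sertoli-level and DESeq2 alternatives, with at least 20 counts in 3 libraries, with the 0.01 threshold and with the block, and ran from 0 to 1 over left-out libraries. Higher calls in the shared machinery became 2 and 2 with upper-quartile scaling and no factor, and 0 with the spermatogonia level, the Sertoli level, DESeq2 and the 1.5-fold test. Of the broadly expressed genes 0 were higher at either marker level and 2 were lower at Sertoli level. Of the other pathway genes 0 were higher at Sertoli level, 1 at spermatogonia level and 2 with the 1.5-fold test.

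Signs changed for Tex19.1, to -0.08 with median-of-ratios, DESeq2 and without WT replicate 3, -1.28 at spermatogonia level and -2.10 at Sertoli level. They changed at these 2 levels for Fkbp6 (-0.92, -1.70), Pnldc1 (-1.14, -1.93), Wdr77 (-0.82, -1.63), Tsn (-0.92, -1.73), Tsnax (-0.80, -1.59) and Cnot7 (-0.75, -1.55). At Sertoli level alone Piwil4 was at -0.04, Snd1 at -0.45 and Mov10 at -0.61. With upper-quartile and no factor, Morc1 was at 0.30 and 0.40, Btbd18 at 0.22 and 0.32, Ago4 at 0.41 and 0.51, and Mfn1 at 0.04 with no factor. Ago4 ran from -0.28 to 0.01 over left-out libraries, with 0.01 without WT replicate 1. The cause was not tested. The labels give the groups no shared replicate numbers and state no pairing. A block of adjacent numbers in the titles, tried as an alternative, gave 6074 higher and 7584 lower calls over all genes. Low counts limit Piwil4, Spocd1 and Btbd18. Few counts in the deletion libraries also limit the sizes of some losses. Examples in deletion replicates 1 to 3 are Gtsf1 (13, 8 and 28 counts), Tdrd6 (42, 18 and 2) and Piwil1 (37, 12 and 32). Pld6 (12, 27 and 15) and Adad2 (19, 16 and 28) are further ones. The ratios to Piwil1 rest on its few deletion counts too.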
